A study of Homo sapiens with 20 samples.

Results

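The genes described here are the clustered, replication-type histone genes. They were taken by name as every row of the read count table whose symbol begins with HIST1H, HIST2H, HIST3H or HIST4H, which gave 35 of 20314 genes. The cells were U2-OS, a human osteosarcoma line, in 4 groups of 5 libraries each. Untreated cells were compared with cells harvested 90 minutes or 7 days after ionizing irradiation (IR) with 20 Gy, and with cells carrying an shRNA against NFKBIA, the gene of the NF-κB inhibitor IκBα. According to the figure legends, the knockdown used a doxycycline-inducible shRNA. The methods name pTRIPz and pGIPZ vectors for the shRNA against IκBα, without saying which served for RNA-seq. Transduced cells went through clonal selection with puromycin. The labels of the untreated and irradiated libraries name neither vector nor doxycycline, and none of the 20 libraries is labelled as a scrambled shRNA control, so effects of NFKBIA loss, vector, drug and clone cannot be told apart. The study calls the libraries of a group biological replicates, and the sources used here do not describe the cultures or days they came from, so p-values measure the spread between these libraries.

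Histones H2A, H2B, H3 and H4 form the core around which DNA is wound, and the linker histone H1 binds outside it. Cells make most of their histone mRNA in S phase, from genes grouped in clusters, to package newly copied DNA. Most of these mRNAs end in a short conserved stem-loop in place of a poly(A) tail, and the stem-loop binding protein SLBP attaches to it and directs processing, translation and decay of the message. Some clustered genes are also known to give polyadenylated mRNA, which extends past the stem-loop or is made in cells that have left the cycle. The libraries here were made from poly(A) mRNA, so the values describe the polyadenylated share of these transcripts and not the total histone mRNA.

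The stem-loop is shown for 6 genes on which the results below turn, because it marks where a message without a tail would end. Transcript models of GENCODE 29 on the GRCh38 build were searched for 16 bases of the form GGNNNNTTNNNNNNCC in which the first 6 bases pair with the last 6. All 35 genes matched a model by identifier. The form was found in 8 of the 15 genes whose counts were tested and in 9 of the 20 others. Counted by protein-coding transcript, it was in 10 of 23 of the tested genes and 9 of 21 of the others, against 0.261% of the 83129 in the annotation. A match is a description of the model, and a gene without a match, such as HIST1H1C, HIST1H2BK, HIST1H2BJ or HIST2H2AC, only lacks these letters in the models searched. The windows lie at chr6:26124662-26124691 on the plus strand for HIST1H2AC, chr1:149886181-149886210 on the minus strand for HIST2H2BE, chr6:26285124-26285153 on the minus strand for HIST1H4H, chr12:14770717-14770746 on the minus strand for HIST4H4, chr6:26123465-26123494 on the minus strand for HIST1H2BC and chr6:27808640-27808669 on the plus strand for HIST1H2AI. Each lies beyond the coding part, and the stem-loop is in capitals, 5′ to 3′.
HIST1H2AC: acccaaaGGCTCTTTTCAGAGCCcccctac
HIST2H2BE: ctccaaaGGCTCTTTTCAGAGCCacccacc
HIST1H4H: aaccaaaGGCCCTTTTCAGGGCCgcccact
HIST4H4: tccaaaaGGCCCTTTTCAGGGCCcccaaac
HIST1H2BC: ccccaaaGGCTCTTTTAAGAGCCacccaga
HIST1H2AI: aaccaaaGGCTCTTTTCAGAGCCacctaca
HIST1H4H and HIST4H4 shared 1 form of it, HIST1H2AC, HIST1H2AI and HIST2H2BE another, and HIST1H2BC had a form of its own among these 6. The models differ in how far they run on. The protein-coding model of HIST2H2BE continues for 1729 bases after the stem-loop, that of HIST1H2AC for 1114 bases and the longer protein-coding model of HIST1H4H for 630 bases. The protein-coding model of HIST4H4 runs on for 169 bases and that of HIST1H2BC with the stem-loop for 116 bases, whereas HIST1H2AI stops after 39 bases. HIST1H2AC and HIST1H2BC each also have a protein-coding model without a match. The polyadenylation signal AATAAA stood within the last 50 bases of 8 of the 23 protein-coding transcripts of the tested genes and of 4 of the 21 of the others, against 35.5% of all protein-coding transcripts.

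The libraries held 22535659 to 40390961 counted reads, and levels are given as counts per 1000000 reads of the TMM-scaled library size (CPM). The limit that a count of 0 allows, taken as 3 reads, was 0.0751 to 0.143 CPM, depending on the library. This limit covers counting error only. The sequencing lanes followed the groups closely, and the fifth untreated replicate, the shallowest library, was the untreated library outside lane 2. The untreated libraries, which serve as the control of 3 comparisons, stood further apart than those of the other groups. Pairs of them had a chi-square of 11.5 to 158 per degree of freedom over the tested genes, where counting noise alone gives about 1, and the 4 pairs with the fifth replicate had 98.2 to 158, against 2.97 to 21.6 at 90 min, 1.74 to 4.16 at 7 days and 1.79 to 8.27 in the knockdown. Without the fifth untreated replicate 0 histone genes were called at 90 min, 4 lower and 0 higher at 7 days, and 6 lower and 1 higher in the knockdown, against 0, 4 and 1, and 5 and 1 with it, by the threshold given below. NFKBIA itself stood at 31.3 ± 7.25 CPM (SD, n = 5) in untreated cells, 82.1 ± 5.27 CPM 90 min post-IR, 30.8 ± 1.59 CPM 7 days post-IR and 12.1 ± 0.667 CPM in the knockdown libraries, which were the lowest. Of the mesenchymal and osteoblast markers, VIM (1844 to 2992 CPM) and RUNX2 (67.6 to 206 CPM) were present in all libraries, while COL1A2 stayed at 0.120 to 0.595 CPM and BGLAP at 0.658 to 1.71 CPM. The other 3 differed by group. COL1A1 stood at 1974 ± 247 CPM (SD, n = 5) untreated, 1716 ± 61.2 at 90 min, 1467 ± 92.6 at 7 days and 617 ± 35.8 in the knockdown. SPARC stood at 2137 ± 82.8, 2053 ± 65, 1275 ± 85.8 and 2165 ± 50 CPM, and ALPL at 26.9 ± 12.4, 21.5 ± 2.18, 45.4 ± 5.58 and 6.84 ± 0.628 CPM, in the same order. The markers of other cells EPCAM, CDH1, KRT14 and PTPRC did not exceed 5.80 CPM in any library.

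Reads on the histone genes came from few of them. Of the 35 genes, 15 passed the filter on low counts and 20 did not, and the 15 held 99.8% of the 235181 reads on all members. 10 genes had 0 reads in all 20 libraries: HIST1H1B, HIST1H1D, HIST1H2AA, HIST1H2BA, HIST2H2AA3, HIST2H3A, HIST2H3C, HIST3H2A, HIST3H2BB and HIST3H3. The other 10 untested genes never exceeded 11 reads in a library, and among them HIST1H1E, a linker histone, had 2 to 11 reads and HIST1H2BL had 0 to 11. By class, the test covered 1 of 6 H1 genes, 5 of 9 H2A genes, 6 of 10 H2B genes, 1 of 6 H3 genes and 2 of 4 H4 genes. By cluster, it covered 12 of 23 HIST1 genes, 2 of 8 HIST2 genes, 0 of 3 HIST3 genes and the single HIST4 gene. The genes that passed were longer in the table, with a median length of 898 bases against 524.5 bases, and 11 of the 15 against 4 of the 20 were longer than 800 bases. Many histone genes are near-identical in sequence, and how the counting treated reads that match several copies is not given in the sources used here, so a low or 0 count does not show that a gene was silent. Gene models also overlap in GENCODE 29. That of HIST1H2BN spans other histone loci on both strands, HIST1H2AD and HIST1H3D overlap 1 further gene model on their own strand, and HIST1H2BD overlaps a gene model on each strand, so the reads of these 4 tested genes are less certain.

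**Figure D1:**
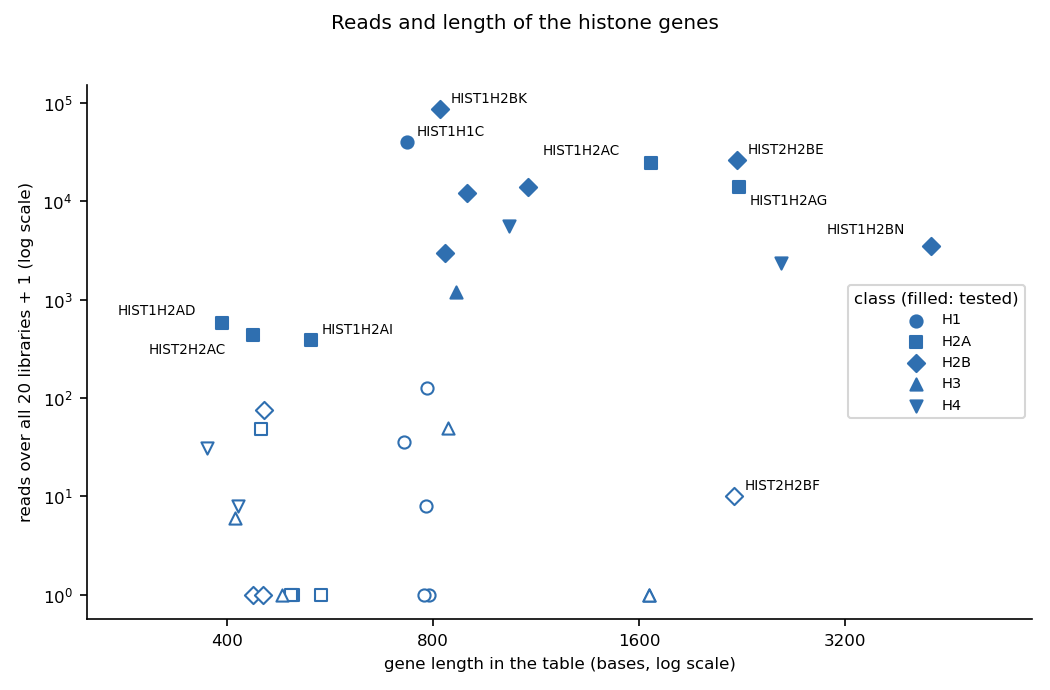
Reads summed over all 20 libraries, plus 1, against gene length in bases as the count table gives it, both on log axes, for the 35 histone genes. Marker shape gives the class and filled markers are the 15 genes that passed the filter. The 10 genes with 0 reads lie on the lowest line, and the filled markers lie above all open ones.

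Within the tested genes, levels in untreated cells spread widely on a per-length scale (mean CPM per kilobase of the gene length in the table). HIST1H2BK, an H2B gene, stood first at 207 CPM per kilobase, followed by the linker histone gene HIST1H1C at 98.9. HIST1H2AC had 26.2, HIST1H2BD 25.3, HIST1H2BJ 24.7 and HIST2H2BE 18.2 CPM per kilobase. HIST1H2AG, HIST1H4H and HIST1H2BC lay between 6.69 and 10, and the other 6 genes between 1.05 and 2.56 CPM per kilobase. All 7 genes that are generally known to give polyadenylated histone mRNA (HIST1H1C, HIST1H2AC, HIST1H2BC, HIST1H2BD, HIST1H2BK, HIST2H2BE and HIST1H4H) were among the 15. HIST1H2BK alone took 38.8% to 40.4% of the summed histone CPM in the untreated libraries, 38.2% to 41% 90 min post-IR, 29.5% to 31.1% 7 days post-IR and 34% to 36.6% in the knockdown. The 7-day libraries thus lay below every other library in this share.

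**Figure D2:**
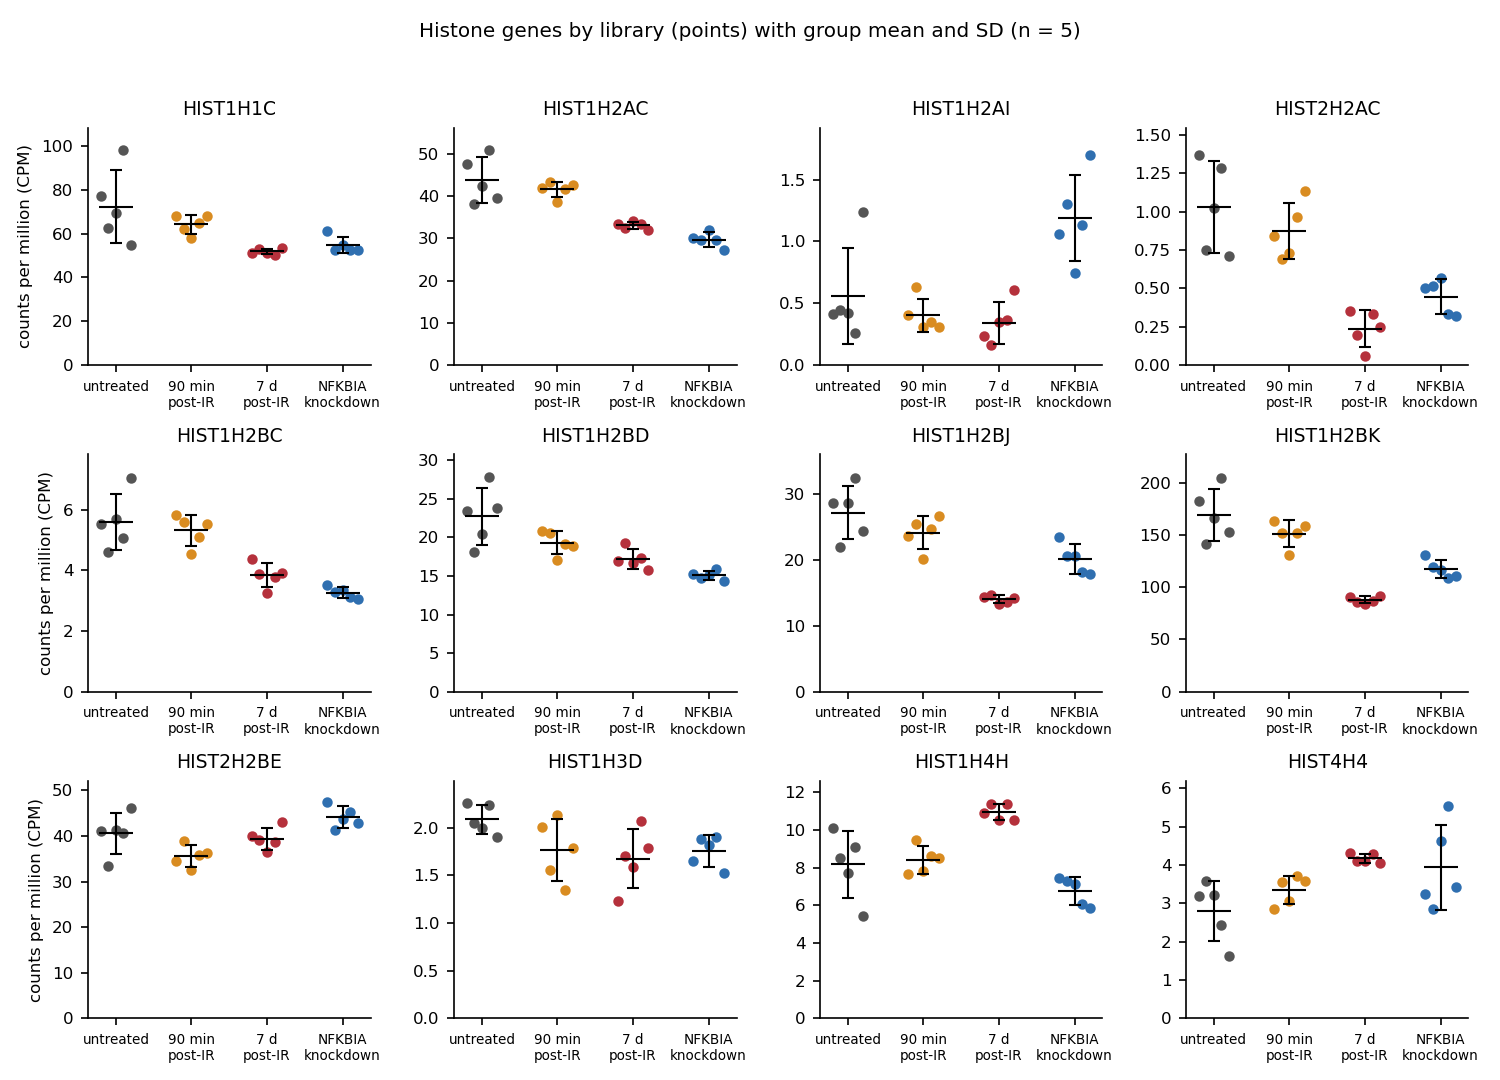
CPM (y axis, from 0, with its own scale in each panel) of 12 histone genes in each library, by group. Points are libraries, and the bar and whiskers give the mean and SD of 5. HIST1H2BJ and HIST1H2BK 7 days post-IR lie below all libraries of the other groups, and HIST1H4H lies above all of them.

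The first comparison asked what the histone genes did early after DNA damage. At 90 min post-IR no histone gene passed the threshold used throughout, an absolute log2 fold change above 0.5 with an edgeR quasi-likelihood adjusted p under 0.05 over all 14992 genes tested. At this threshold 2.08% of all genes were higher and 1.57% lower. DESeq2 also called 0 members in either direction, and at an unadjusted p under 0.05, 3 of the 15 were lower and 0 higher, against 17.7% and 15.7% of all genes. HIST1H2BK read 182, 141, 166, 204 and 153 CPM in the untreated libraries and 163, 152, 130.5, 151 and 159 CPM at 90 min. The groups overlapped (log2 fold change -0.16 ± 0.08 SE, edgeR adjusted p = 0.168). The median log2 fold change of the 15 genes was -0.17, against -0.03 over all genes tested, and 13 of the 15 lay below 0. HIST1H2BN, an H2B gene named here after its values were seen, was the 1 member whose groups did not overlap, as was so for 12.3% of all genes. It read 5.67, 5.67, 5.40, 6.43 and 5.18 CPM untreated and 3.86, 4.15, 4.16, 4.10 and 4.96 CPM at 90 min, and its change passed the adjusted p and not the fold threshold (log2 fold change -0.42 ± 0.10 SE, edgeR adjusted p = 0.00427). Where 5 libraries against 5 do not overlap, as here, the exact two-sided permutation test of log2 CPM gives p = 0.00794, the smallest it can give. By the adjusted p alone 0 members were higher and 1 lower, against 11.1% and 10.2% of all genes. Within lane 3, which held 3 of the 90-min libraries and the fifth untreated replicate, the log2 difference of HIST1H2BK was -0.05 and that of HIST1H2BN was -0.36. The values furthest from the pooled ones there were -1.45 for HIST1H2AI (-0.30 pooled), 0.90 for HIST4H4 (0.29 pooled), 0.59 for HIST1H4H (0.06 pooled), -0.42 for HIST1H2BC (-0.06 pooled) and 0.19 for HIST1H1C (-0.15 pooled). The fifth untreated replicate had the lowest untreated CPM of both H4 genes and the highest of HIST1H2AI and HIST1H2BC. Lane 2 held only untreated libraries, so a fit with the lane as a factor rests its untreated level on this replicate alone. With the lane as a factor in the fit, HIST1H4H (0.61) and HIST4H4 (0.96) were called higher and HIST1H2AI (-1.46) lower at 90 min, against 11.9% and 13.6% of all genes.

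At 7 days post-IR, when the study places the cells in senescence, 3 of the 6 tested H2B genes and 1 of the 5 H2A genes fell, and 1 of the 2 H4 genes rose. Of the 15 tested genes 4 fell past the threshold (HIST2H2AC, HIST1H2BJ, HIST1H2BK and HIST1H2BC) and 1 rose (HIST4H4), while 14.4% of all genes fell and 16.7% rose. HIST1H2BK read 90.5, 85.6, 84.1, 86.7 and 92 CPM, against the untreated values above. Every 7-day library lay below every untreated library, and the mean fell from 169 ± 24.8 to 87.8 ± 3.33 CPM (log2 fold change -0.95 ± 0.08 SE, edgeR adjusted p = 2.47e-09). HIST1H2BJ, another H2B gene of the same cluster, read 28.5, 22, 28.5, 32.4 and 24.3 CPM untreated and 14.3, 14.7, 13.4, 13.6 and 14.3 CPM at 7 days. These groups were also apart (log2 fold change -0.95 ± 0.10 SE, edgeR adjusted p = 2.61e-08).

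HIST2H2AC, an H2A gene of the HIST2 cluster, had the lowest reads of the 4. It counted 46, 27, 41, 39 and 15 reads in the untreated libraries and 12, 6, 2, 11 and 7 reads in the 7-day libraries, which is 1.37, 0.747, 1.03, 1.29 and 0.713 CPM and 0.351, 0.197, 0.0577, 0.335 and 0.251 CPM. The groups did not overlap (log2 fold change -2.11 ± 0.29 SE, edgeR adjusted p = 2.20e-06). HIST1H2BC read 5.52, 4.59, 5.68, 5.07 and 7.04 CPM untreated and 4.36, 3.88, 3.26, 3.77 and 3.90 CPM at 7 days, again apart, and its change was near the fold threshold (log2 fold change -0.53 ± 0.10 SE, edgeR adjusted p = 1.40e-04). It was no longer called without the fifth untreated replicate (-0.47) or without the third 7-day replicate (-0.49).

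Both tested H4 genes had higher means at 7 days than in untreated cells. HIST4H4, the lone gene of its cluster, read 3.18, 3.57, 3.23, 2.44 and 1.62 CPM untreated and 4.30, 4.11, 4.09, 4.29 and 4.05 CPM at 7 days. All 7-day libraries lay above all untreated ones (log2 fold change 0.54 ± 0.17 SE, edgeR adjusted p = 0.00988). The call did not hold without the fourth untreated replicate (log2 fold change 0.46) or without the fifth (0.40). HIST1H4H read 10.1, 8.52, 7.73, 9.09 and 5.42 CPM untreated and 10.9, 11.4, 10.6, 11.4 and 10.6 CPM at 7 days. These groups were apart as well, but the change stayed under the fold threshold (log2 fold change 0.41 ± 0.11 SE, edgeR adjusted p = 0.00315). HIST2H2BE, an H2B gene, did not pass the test. It read 41, 33.5, 41.3, 40.7 and 46.2 CPM untreated and 39.9, 39, 36.4, 38.7 and 43 CPM at 7 days (log2 fold change -0.04 ± 0.07 SE, edgeR adjusted p = 0.643).

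Among the members just under the fold threshold at 7 days, HIST1H1C, HIST1H2AC, HIST1H2AG and HIST1H2BD had log2 fold changes of -0.48, -0.40, -0.37 and -0.40. All passed the adjusted p, and HIST1H1C was called without the second or the fifth untreated replicate (-0.53 and -0.59), without the second 7-day replicate (-0.50) and with no filter on low counts (-0.52). The H3 gene tested, HIST1H3D, read 2.26, 2.05, 2.0, 2.24 and 1.90 CPM untreated and 1.23, 1.71, 1.59, 2.07 and 1.79 CPM at 7 days, with overlapping groups (log2 fold change -0.32 ± 0.13 SE, edgeR adjusted p = 0.0399). By the adjusted p alone 9 members were lower and 2 higher, against 31.2% and 32.9% of all genes. The groups did not overlap for 9 of the 15 members, against 44.8% of all genes. The median over the 15 was -0.40, against 0.01 over all genes, and 12 of the 15 lay below 0. In bulk RNA, fewer cells that make a transcript and less of it per cell cannot be told apart. The 7-day and untreated libraries shared no lane. With the lane as a factor, the untreated level rested on the fifth untreated replicate alone, since lane 2 held only untreated libraries. In that fit HIST1H2BK, HIST1H2BJ, HIST2H2AC, HIST1H2BC and HIST4H4 kept their direction and side of the threshold (-0.86, -0.90, -1.82, -0.77 and 1.16 on the log2 scale). HIST1H4H passed at 0.99, and HIST1H2AI moved from -0.59 to -2.17 and passed. The calls of HIST1H2BC and HIST4H4 did not hold without that replicate, as given above. Of the genes that had passed the adjusted p alone, HIST1H1C (-0.16, adjusted p = 0.538), HIST1H2AC (-0.29, 0.136), HIST1H2BD (-0.36, 0.187) and HIST1H3D (-0.10, 0.815) no longer did in this edgeR fit. The fit called 2 members higher and 5 lower, against 21.8% and 19.5% of all genes.

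The third comparison asked what NFKBIA knockdown did without irradiation. Of the 15 genes 5 fell (HIST2H2AC, HIST1H2BC, HIST1H2BD, HIST1H2AC and HIST1H2BK) and 1 rose (HIST1H2AI), against 7.53% and 5.18% of all genes. HIST2H2AC read 0.50, 0.515, 0.568, 0.330 and 0.319 CPM in the knockdown libraries, from 17, 17, 19, 9 and 9 reads. All lay below the untreated libraries (log2 fold change -1.19 ± 0.26 SE, edgeR adjusted p = 9.61e-04). HIST1H2BC read 3.50, 3.27, 3.35, 3.12 and 3.05 CPM (log2 fold change -0.76 ± 0.11 SE, edgeR adjusted p = 7.44e-06). Its lowest untreated library stood at 4.59 CPM, above all of these.

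HIST1H2BD, also an H2B gene, read 23.4, 18.2, 20.4, 27.8 and 23.8 CPM untreated and 15.3, 14.7, 15.2, 15.9 and 14.4 CPM in the knockdown (log2 fold change -0.59 ± 0.09 SE, edgeR adjusted p = 2.11e-05). HIST1H2AC, the H2A gene next to HIST1H2BC, read 47.7, 38.1, 42.4, 50.8 and 39.5 CPM untreated and 30.2, 29.6, 32, 29.5 and 27.1 CPM in the knockdown (log2 fold change -0.56 ± 0.07 SE, edgeR adjusted p = 1.23e-06). HIST1H2BK read 131, 119.5, 116, 109 and 111 CPM in the knockdown (log2 fold change -0.53 ± 0.08 SE, edgeR adjusted p = 2.79e-05). All 3 genes had knockdown libraries below every untreated library, and the fold of HIST1H2BK was near the threshold and fell under it without the fourth untreated replicate (-0.48).

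The gene that rose, HIST1H2AI, is an H2A gene at low counts. It read 0.416, 0.443, 0.425, 0.264 and 1.24 CPM untreated, from 14, 16, 17, 8 and 26 reads, and 1.06, 1.30, 0.747, 1.14 and 1.70 CPM in the knockdown, from 36, 43, 25, 31 and 48 reads. The fifth untreated replicate lay within the range of the knockdown libraries and the other 4 below it (log2 fold change 1.20 ± 0.32 SE, edgeR adjusted p = 0.00456). The exact two-sided permutation test of its log2 CPM over libraries gave p = 0.0317. Without that replicate the log2 fold change was 1.56, and HIST1H1C was then called lower in the knockdown (-0.50). HIST1H2AG, named here after its values were seen, was the member whose knockdown libraries all lay above the untreated ones. It read 22.5, 21.7, 22.1, 23.1 and 22.9 CPM untreated and 25.4, 23.1, 24.9, 24.5 and 25.9 CPM in the knockdown (log2 fold change 0.14 ± 0.04 SE, edgeR adjusted p = 0.0135).

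The groups did not overlap for 6 of the 15 members, against 24.1% of all genes. By the adjusted p alone 7 were lower and 3 higher, against 21.1% and 19.5%. The median over the 15 was -0.28, against -0.01 over all genes. Of the 7 genes known for polyadenylated mRNA, 4 fell in the knockdown, against 7.53% of all genes, and 2 at 7 days, against 14.4%, with medians of -0.53 and -0.40. The knockdown calls changed when the lane entered the fit. Lane 2 held only untreated and lane 6 only knockdown libraries. That fit thus rested on the fifth untreated and the first knockdown replicate, linked through the irradiated groups, so a lane effect cannot be read from it. No lane held both untreated and knockdown libraries, so no within-lane value exists, and with the lane as a factor 1 member was lower (HIST1H2BC, -0.82 on the log2 scale) and 0 were higher, against 14.0% and 13.3% of all genes. In that fit HIST1H2AI reversed to -0.88, HIST1H1C moved from -0.40 to 0.08 and HIST1H4H from -0.28 to 0.45, none of them past the threshold.

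**Figure D3:**
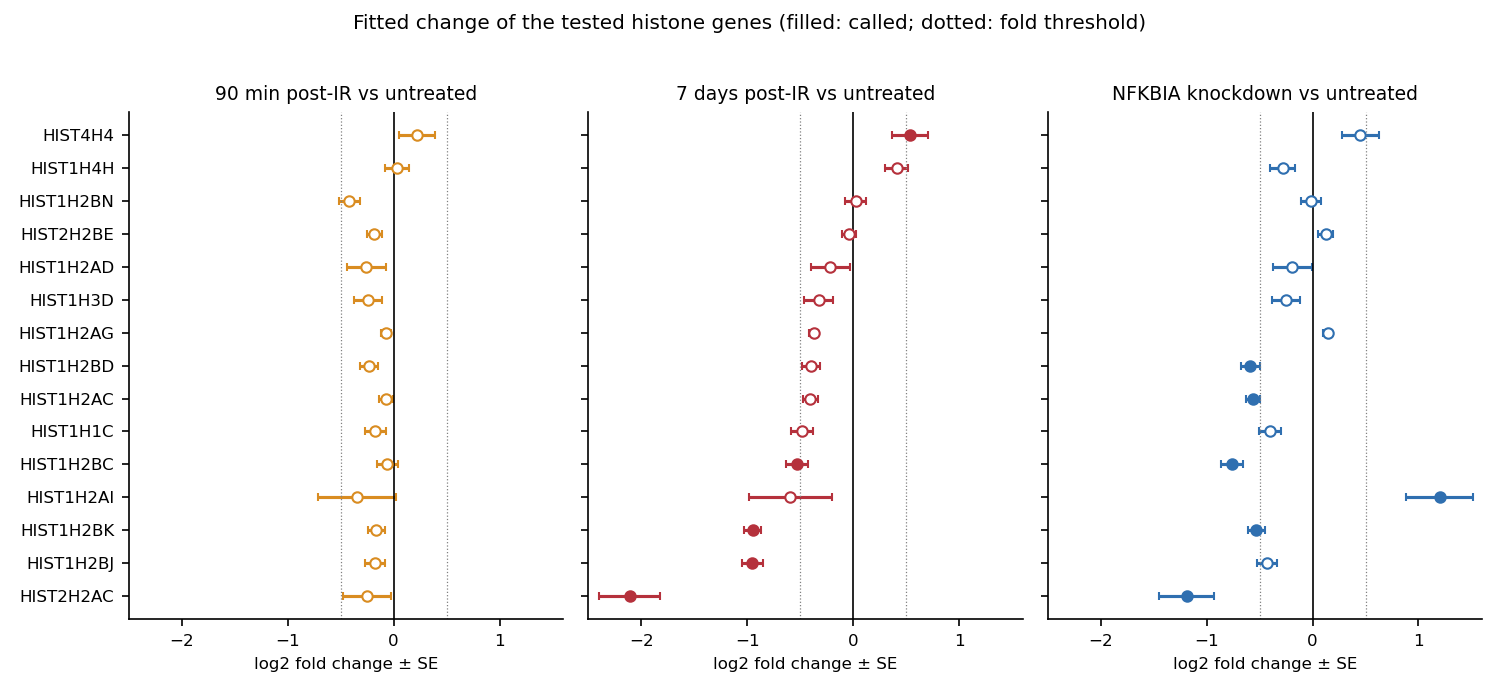
Log2 fold change (x axis) with its SE for the 15 tested histone genes against untreated cells, from the edgeR fit over all 20 libraries. Filled markers passed both thresholds and dotted lines mark the fold threshold of 0.5. The first panel holds no filled marker, the 7-day panel holds 4 filled markers to the left and 1 to the right, and the knockdown panel 5 to the left and 1 to the right.

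The 7-day libraries were then compared directly with the 90-min libraries. 3 members were lower at 7 days (HIST2H2AC, HIST1H2BK and HIST1H2BJ) and 0 higher, against 12.6% and 16.8% of all genes. At an unadjusted p under 0.05, 7 were lower and 2 higher, against 30.4% and 33.6% of all genes, and DESeq2 also called 0 higher. HIST2H2AC read 0.838, 0.692, 0.731, 0.967 and 1.13 CPM at 90 min (log2 fold change -1.86 ± 0.30 SE, edgeR adjusted p = 1.45e-05). HIST1H2BJ read 23.5, 25.5, 20.2, 24.6 and 26.7 CPM at 90 min (log2 fold change -0.78 ± 0.10 SE, edgeR adjusted p = 5.03e-07), and HIST1H2BK had a log2 fold change of -0.79 ± 0.08 SE (edgeR adjusted p = 4.53e-08). For all 3 genes the 7-day libraries lay below every 90-min library. Lane 4 held 2 libraries of each time, and within it the log2 differences were -1.75 for HIST2H2AC, -0.82 for HIST1H2BK and -0.82 for HIST1H2BJ. HIST1H4H stood higher at 7 days by 0.38 with groups apart and by 0.38 within lane 4. The groups were apart for 10 of the 15 members, as for 61.8% of all genes. By the adjusted p alone 7 were lower and 2 higher, against 28.9% and 32.0% of all genes.

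The 7-day and knockdown groups share the untreated libraries as their control, so they were also set against each other. 1 member was higher at 7 days than in the knockdown (HIST1H4H) and 4 were lower (HIST1H2AI, HIST2H2AC, HIST1H2BJ and HIST1H2AG), against 15.8% and 9.89% of all genes. HIST1H4H read 7.45, 7.31, 7.11, 6.08 and 5.85 CPM in the knockdown, below all 7-day libraries (log2 fold change 0.69 ± 0.11 SE, edgeR adjusted p = 2.41e-05). HIST1H2AI read 0.234, 0.164, 0.346, 0.365 and 0.609 CPM at 7 days, below all knockdown libraries (log2 fold change -1.79 ± 0.34 SE, edgeR adjusted p = 1.27e-04). HIST1H2AG read 17, 18.3, 16.8, 16.9 and 17.8 CPM at 7 days, so it lay below the untreated libraries there and above them in the knockdown (log2 fold change -0.51 ± 0.04 SE, edgeR adjusted p = 2.74e-09). HIST1H2BJ read 23.5, 20.5, 20.6, 18.2 and 17.8 CPM in the knockdown (log2 fold change -0.52 ± 0.10 SE, edgeR adjusted p = 1.05e-04), and without the first knockdown replicate it fell under the fold threshold (-0.48). HIST2H2AC was lower at 7 days with overlapping groups (log2 fold change -0.92 ± 0.34 SE, edgeR adjusted p = 0.0257). Its call did not hold without the third 7-day replicate (-0.67) or the third knockdown replicate (-0.84), nor with the lane as a factor. HIST1H2BK differed by -0.42 ± 0.08 SE (edgeR adjusted p = 1.84e-04), under the fold threshold, and passed it with the lane as a factor (-0.58). Lane 5 held 3 of the 7-day libraries and the first knockdown replicate, and within it the log2 differences were 0.54 for HIST1H4H, -1.19 for HIST1H2AI, -1.19 for HIST2H2AC, -0.77 for HIST1H2BJ and -0.57 for HIST1H2AG. HIST1H2AC, HIST1H2BC and HIST1H2BD fell in the knockdown and differed between the groups by 0.16, 0.23 and 0.19 on the log2 scale, none past the threshold.

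Summed over all members, histone CPM was 364 to 505 in the untreated libraries, 342 to 400.1 at 90 min, 279.9 to 297 at 7 days and 314 to 359 in the knockdown. The 7-day libraries were lowest and did not overlap any other group, and the knockdown libraries lay below all untreated libraries. The sum is carried by the H2B genes, which went from 271 ± 33.8 CPM (SD, n = 5) untreated to 168 ± 5.84 at 7 days and 206 ± 13.2 in the knockdown. The H2A sum went from 68.8 ± 5.80 to 51.9 ± 0.309 and 57 ± 1.58, with both groups below all untreated libraries. The H1 sum, nearly all from HIST1H1C, was 72.6 ± 16.6 untreated, 52.2 ± 1.25 at 7 days and 55 ± 3.79 in the knockdown, and the knockdown overlapped the untreated libraries. The H3 sum, nearly all from HIST1H3D, was 2.08 to 2.34 CPM untreated, 1.44 to 2.22 at 90 min, 1.26 to 2.07 at 7 days and 1.70 to 2.02 in the knockdown. The 7-day and knockdown libraries lay below all untreated libraries in it. The H4 sum alone was highest at 7 days, with 14.6 to 15.8 CPM against 7.18 to 13.3 untreated, 10.5 to 13 at 90 min and 9.39 to 11.8 in the knockdown, and it did not overlap any of them. These sums are descriptions and were not tested.

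**Figure D4:**
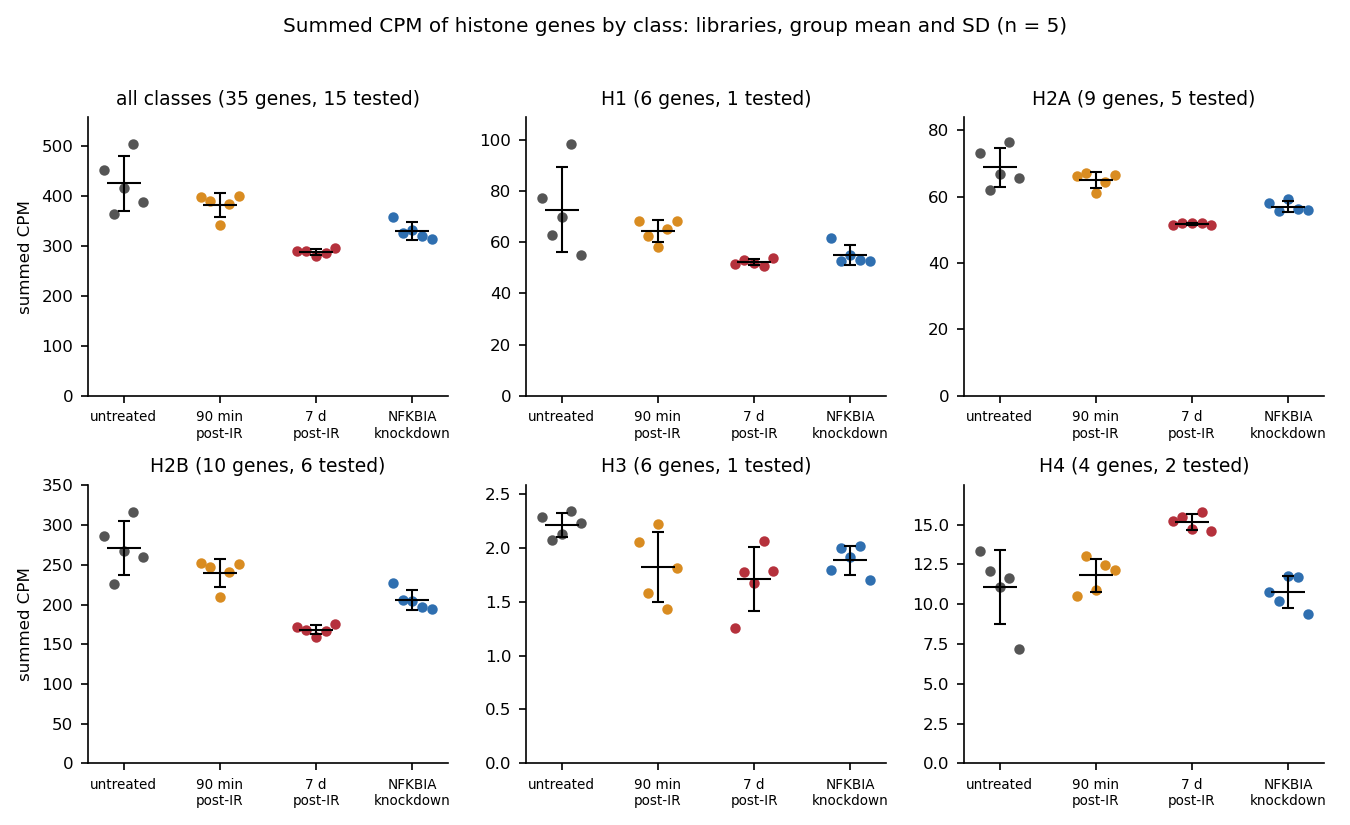
Summed CPM (y axis, from 0) of the histone genes of each class in every library, by group, with the mean and SD of 5. All classes together range from 279.9 to 297 CPM at 7 days, against 364 to 505 CPM untreated, and H4 is the class whose 7-day libraries are the highest.

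Many H2A and H2B genes sit head to head and share the short stretch between their starts. In the RefSeq promoter table (GRCh38) 6 such pairs were found among the members, with starts on opposite strands 215 to 248 bases apart, and both partners were tested in 3 of them. This comparison was added after the data were seen. Ratios are differences of log2 CPM with a prior count of 2, which weighs most on HIST2H2AC at its low reads. For HIST1H2AC and HIST1H2BC the log2 ratio of CPM, H2A over H2B, was 2.47 to 3.31 untreated, 2.84 to 3.07 at 90 min, 2.92 to 3.37 at 7 days and 3.09 to 3.23 in the knockdown, and all groups overlapped the untreated one. For HIST1H2AG and HIST1H2BJ the ratio was -0.49 to -0.02 untreated and -0.28 to 0.02 at 90 min, but 0.24 to 0.33 at 7 days and 0.12 to 0.54 in the knockdown. The ratio thus lay above all untreated libraries in both groups. For HIST2H2AC and HIST2H2BE, which stand 236 bases apart, the ratio went the other way. Its mean was -5.25 ± 0.40 (SD, n = 5) untreated, -5.28 ± 0.29 at 90 min, -7.16 ± 0.69 at 7 days and -6.46 ± 0.33 in the knockdown, and no 7-day or knockdown library reached the untreated range. So HIST2H2AC fell while its neighbour across the same stretch did not pass the test in any of these comparisons.

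**Figure D5:**
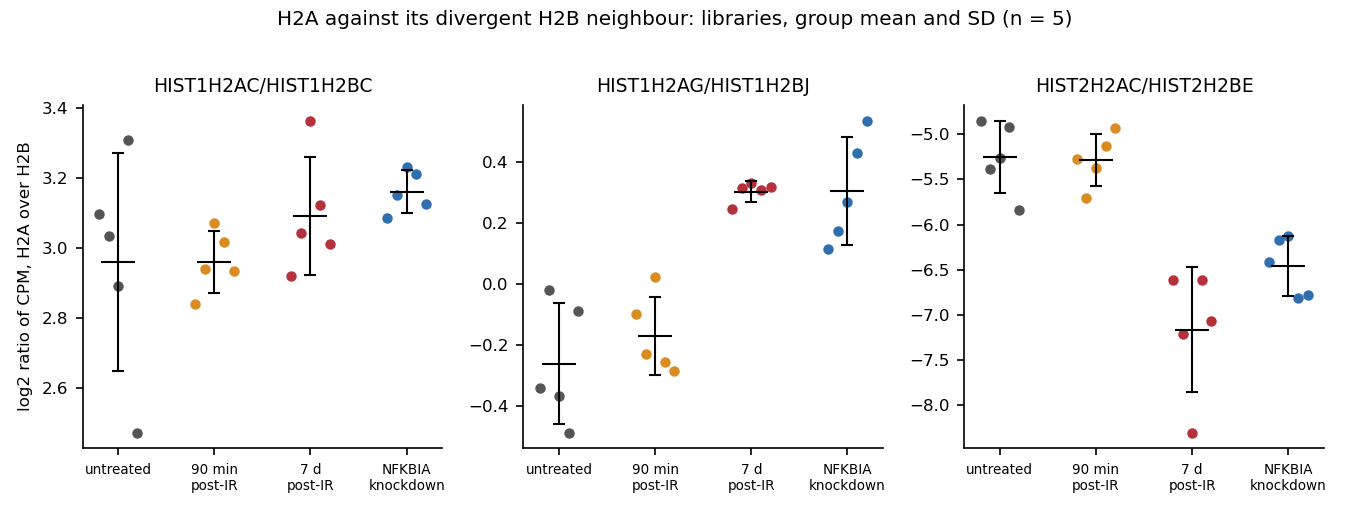
Log2 ratio of CPM, with a prior count of 2, of an H2A gene over its head-to-head H2B neighbour in each library, by group. The scale of the y axis differs by panel, and the bar and whiskers give the mean and SD of 5. For the first pair all groups overlap the untreated one. The second lies higher and the third lower at 7 days and in the knockdown than in untreated cells.

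The promoters of the 2 H2B genes that fell most at 7 days, of HIST2H2AC and of the H4 gene that rose are shown, since they had the largest called changes at 7 days in each direction. They run from 250 bases before the start to 50 bases after it, from RefSeq on GRCh38. They lie at chr6:27146809-27147108 on the minus strand, chr6:27132746-27133045 on the minus strand, chr1:149886668-149886967 on the plus strand and chr12:14771082-14771381 on the minus strand. RefSeq lists a second start for HIST1H2BK 3 bases away. Capitals mark matches, on either strand, to the octamer ATTTGCAT, the CCAAT box CCAAT, the TATA box TATAAA and the cyclic AMP response element TGACGTCA, which reads the same on both strands. Matches may overlap, as where TATAAA is read on both strands.
HIST1H2BK: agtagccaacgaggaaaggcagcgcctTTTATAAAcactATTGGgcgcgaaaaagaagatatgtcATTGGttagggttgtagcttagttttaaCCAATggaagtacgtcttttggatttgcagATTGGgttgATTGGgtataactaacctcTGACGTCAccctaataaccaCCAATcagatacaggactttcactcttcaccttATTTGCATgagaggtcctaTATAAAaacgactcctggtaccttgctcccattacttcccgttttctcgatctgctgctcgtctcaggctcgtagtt
HIST1H2BJ: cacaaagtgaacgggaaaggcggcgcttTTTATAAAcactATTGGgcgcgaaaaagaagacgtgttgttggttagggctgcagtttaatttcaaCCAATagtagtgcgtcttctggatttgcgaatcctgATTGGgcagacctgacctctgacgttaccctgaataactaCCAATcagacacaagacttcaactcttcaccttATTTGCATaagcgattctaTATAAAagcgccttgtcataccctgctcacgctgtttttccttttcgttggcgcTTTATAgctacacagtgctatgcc
HIST2H2AC: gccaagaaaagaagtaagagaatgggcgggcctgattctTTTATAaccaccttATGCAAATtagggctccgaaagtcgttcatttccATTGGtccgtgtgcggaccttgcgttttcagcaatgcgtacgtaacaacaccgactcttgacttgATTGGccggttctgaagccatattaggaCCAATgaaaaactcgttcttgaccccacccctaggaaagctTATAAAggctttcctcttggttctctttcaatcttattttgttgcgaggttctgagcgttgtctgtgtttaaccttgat
HIST4H4: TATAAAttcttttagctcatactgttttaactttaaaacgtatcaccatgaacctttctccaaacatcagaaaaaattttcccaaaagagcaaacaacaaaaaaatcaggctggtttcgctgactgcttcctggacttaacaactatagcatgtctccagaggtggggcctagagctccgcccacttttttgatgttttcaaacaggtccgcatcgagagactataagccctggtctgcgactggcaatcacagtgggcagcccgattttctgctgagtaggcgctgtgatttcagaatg
HIST1H2BK and HIST1H2BJ both hold the octamer, 46 and 47 bases before the start, with a TATA box 27 and 28 bases before it. HIST2H2AC holds a TATA box 29 bases before its start and the octamer in reverse 197 bases before it, toward HIST2H2BE. HIST4H4 holds none of these in its proximal part, and its single match is TATAAA at the first base of the window. A match is a description of letters and not a site of binding. RefSeq gave 36 promoters for 33 members. The promoters of HIST1H2BK nearly coincide, as do those of HIST1H2BD, and a promoter of HIST1H3D is also that of HIST1H2AD. The octamer was found in 14 of the 36, among them 7 of 12 H2B and 6 of 9 H2A promoters. It was in 1.77% of all 35097 promoters. The CCAAT box was in 33 of the 36 and 34.6% of all, with none in the 3 H4 promoters, and the TATA box in 26 of the 36 and 11.5% of all. The cyclic AMP response element was in 5 of the 36 and 1.85% of all. A search for the consensus site of NF-κB matched 1 of the 36 (HIST1H4J, an untested H4 gene), against 11.3% of all promoters.

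Of 12 tested genes outside the clusters that make histone variants, 10 fell at 7 days. Most of these replacement variants are made from ordinary polyadenylated mRNA, also outside S phase. Their median log2 fold change was -0.70, and 0 rose (0 also at an unadjusted p under 0.05, against 34.5% of all genes higher and 32.8% lower at that p), against the 14.4% that fell and 16.7% that rose over all genes. The largest falls were in the linker histone genes H1FX (-1.78 ± 0.08 SE) and H1F0 (-1.75 ± 0.12 SE), in H2AFX, whose product marks DNA breaks when phosphorylated (-1.61 ± 0.13 SE), and in the centromere histone gene CENPA (-1.38 ± 0.06 SE). In the knockdown 3 fell, against 7.53% of all genes, H2AFX (-0.87), H2AFJ (-0.62) and H2AFY2 (-0.51), and the median was -0.35. At 90 min 4 fell, against 1.57% of all genes, CENPA (-0.72), H2AFX (-0.55), H1F0 (-0.52) and H2AFJ (-0.51), with a median of -0.17. Without the fifth untreated replicate 1 of the 12 fell at 90 min. Between 90 min and 7 days 9 of the 12 fell, against 12.6% of all genes, most in H1FX (-1.44), H1F0 (-1.22), H2AFX (-1.06) and H2AFV (-0.99).

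Of 20 tested factors that make, process or degrade histone mRNA, 1 rose and 1 fell at 7 days, against 16.7% and 14.4% of all genes, and the median was -0.13. SLBP, the stem-loop binding protein, had a log2 fold change of 0.27 ± 0.08 SE at 90 min, -0.25 ± 0.08 SE at 7 days and -0.17 ± 0.08 SE in the knockdown, none called, but was lower at 7 days than at 90 min (-0.52 ± 0.08 SE). NPAT, the coactivator of histone gene transcription in S phase, had 0.23 ± 0.08, -0.09 ± 0.09 and -0.09 ± 0.09 in the same order and was not called. The gene that rose at 7 days was ZCCHC6, a terminal uridylyltransferase (0.77 ± 0.11 SE), and the gene that fell was SRRT (-0.53 ± 0.07 SE), which acts with the cap-binding complex and was not called without the fifth untreated replicate. CCNE2, a cyclin of the G1 to S transition, rose at 90 min (0.67 ± 0.07 SE), fell in the knockdown (-0.52 ± 0.08 SE, not called without the fifth untreated replicate) and was lower at 7 days than at 90 min (-1.04), as was CDK2, its kinase partner (-0.50), while ZCCHC6 was higher (0.56). Of the 20 factors 3 were thus lower and 1 higher at 7 days than at 90 min, against 12.6% and 16.8% of all genes. At 90 min 1 rose and 0 fell, against 2.08% and 1.57% of all genes. In the knockdown 0 rose and 1 fell, against 5.18% and 7.53%.

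Histone chaperones, which carry histones to DNA, fell in 9 of 21 genes at 7 days, against 14.4% of all genes, with a median of -0.35. CHAF1A, a subunit of the replication-coupled assembly factor, had -0.97 ± 0.04 SE, SSRP1 of the FACT complex -0.93 ± 0.05 SE, and ASF1B and DNAJC9 both -0.81. In the knockdown 2 of the 21 fell, HJURP (-0.56) and CHAF1B (-0.56), against 7.53% of all genes. At 90 min 1 of the 21 fell, HJURP (-0.87), against 1.57% of all genes. Between 90 min and 7 days 8 fell, against 12.6% of all genes, most in DNAJC9 (-0.98), CHAF1A (-0.97), SSRP1 (-0.88) and NASP (-0.80). Of the genes of S phase and proliferation 14 of 20 fell at 7 days, against the same 14.4% of all genes, with a median of -0.76, including MKI67 (-1.74), GINS2 (-1.31), CCNA2 (-1.18) and TK1 (-1.15). In the knockdown 2 of 20 fell, MKI67 (-0.88) and TK1 (-0.82), a share near the 7.53% of all genes, with a median of -0.37. MKI67 stood at 896 ± 535 CPM (SD, n = 5) in the untreated and 486 ± 29.6 CPM in the knockdown libraries, and without the fifth untreated replicate its log2 fold change was -0.47 and not called, which left TK1 (-0.93). At 7 days 14 of the 20 fell also without that replicate. At 90 min 0 of 20 passed in either direction (5 higher and 2 lower at an unadjusted p under 0.05, against 15.7% and 17.7% of all genes). Between 90 min and 7 days 16 of the 20 fell, against 12.6% of all genes, among them GINS2 (-1.30), MKI67 (-1.16), MCM6 (-1.15) and E2F1 (-1.14). The part of these proliferation genes in the histone values was not tested.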

How the data were processed

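RNA-seq had been run on 20 U2-OS libraries. Per the methods, each library was prepared with a stranded mRNA kit from 500 ng of total RNA and read from 1 end. The submitters' processing notes name bcl2fastq, Trimmomatic, STAR 2.4.2a and hg19, with no roles; counter, annotation and strand setting are not given in the sources used here. The authors deposited raw counts per gene, with gene lengths, without normalization.

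Counts were tested in edgeR 4.0.16 (R 4.3.3): filterByExpr with a minimum count of 10, TMM factors, and a quasi-likelihood fit of all 20 libraries with a term per group. Adjusted p-values are Benjamini-Hochberg over 14992 genes, CPM use TMM library sizes, and log2 CPM a prior count of 2. The script was tested on simulated data. Stem-loops, motifs and neighbours were searched in GENCODE 29 and RefSeq tables (GRCh38), matched to the count table by gene identifier alone. Members and gene lists were chosen with earlier results of these data known. Genes were named by rule: up to 8 called members with the largest change per comparison, the highest member per class, the 7 genes known for polyadenylated mRNA, and up to 4 called genes per other list with SLBP and NPAT. A list of RNAs without a poly(A) tail matched 0 rows, so no check of the RNA selection was possible. Of the fixed markers of other cell types, a further one is not reported here. Alternatives were other scaling, filters, DESeq2 1.42.0, a replicate block, lane, and leaving out each library.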

Additional observations from a re-analysis of the deposited data

Results flagged for a closer look

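In 60 sets of 5 libraries (15 genes in 4 groups) the highest or lowest library was tested for a gap to its neighbour of more than 0.71 of the range, Dixon's limit for 5 values. 3 sets passed, and chance alone gives about 1 in 20. HIST1H1C stood at 61.3 CPM in the first knockdown replicate, against 52.5 to 54.9 CPM in the others. This library was also the knockdown library sequenced in lane 5. HIST1H2AI stood at 1.24 CPM in the fifth untreated replicate, against 0.264 to 0.443 CPM in the others. HIST1H2BN stood at 4.96 CPM in the fifth 90-min replicate, against 3.86 to 4.16 CPM in the others.

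The effect of irradiation differed between 7 days and 90 min by a direct test in 3 genes: HIST2H2AC by -1.86, HIST1H2BK by -0.79 and HIST1H2BJ by -0.78 on the log2 scale (edgeR, values with errors and p-values as given for this comparison), lower in 5 of 5 libraries at 7 days than in any at 90 min. Their cause was not tested.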

How the results depend on the processing

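Counts of called members are given as higher, then lower. With the lane as a factor they became 2 (HIST1H4H and HIST4H4) and 1 (HIST1H2AI) at 90 min, 2 and 5 at 7 days (HIST1H4H and HIST1H2AI added), and 0 and 1 in the knockdown, where HIST1H1C (0.082) and HIST1H2AI (-0.88) reversed and HIST1H4H, not called, turned from -0.28 to 0.45. By the adjusted p alone they were 1 lower at 90 min, 2 and 9 at 7 days, 3 and 7 in the knockdown, and 2 and 7 for 7 days against 90 min. Scaling by library size alone gave 2 and 4 in the knockdown (HIST4H4 gained at 0.50, HIST1H2BK lost at -0.47) and 1 and 3 at 7 days (HIST1H2BC lost at -0.48), no filter on low counts gave 1 higher for 7 days against 90 min and 5 lower at 7 days and for 7 days against the knockdown, and a minimum of 10 counts in every library gave 0 and 4 in the knockdown, 3 lower at 7 days, 2 lower for 7 days against 90 min and 2 lower for 7 days against the knockdown, since HIST1H2AI and HIST2H2AC were then not tested. The alternatives for 7 days against the knockdown, and leaving out untreated libraries for the other gene lists, were chosen after seeing the data. Leaving out each library gave ranges of 0 to 1 higher and 3 to 5 lower at 7 days, 1 to 2 and 4 to 6 in the knockdown, 0 to 1 and 3 to 4 for 7 days against 90 min, and 3 to 4 lower for 7 days against the knockdown. The cause of these shifts was not tested. RLE factors, DESeq2, fitting only the groups compared and the replicate block changed no call of the 15 genes in the 5 comparisons. Same-numbered libraries did not deviate together (correlations from -0.258 to 0.122), so the block, which left the counts at 1 and 5 in the knockdown and 1 and 4 at 7 days, shares only a number.

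The 20 genes below the filter could not be tested, and among those tested HIST1H2AI and HIST2H2AC had the fewest reads, 390 and 433 over the 20 libraries. Lanes are nearly confounded with groups, so lane and group can be told apart only through the few lanes that hold both. Lane 2 held only untreated and lane 6 only knockdown libraries. With the lane as a factor, the untreated level thus rested on the fifth untreated replicate and the knockdown level on the first knockdown replicate.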
